A study of Mus musculus with 6 samples.

Results

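The mRNAs described here encode the Mos-MAPK pathway and cytostatic factor of the mouse oocyte. They were chosen by name, for their role in the pathway: *Mos*, *Map2k1*, *Mapk3* and *Fbxo43*, which are 4 of the 25899 gene symbols in the deposited table. All 4 were above the limit on low values, a mean of 1 FPKM (fragments per kilobase of exon, scaled to the mapped reads of the library) in at least 1 fraction. Oocytes came from aged females (AF), 58 weeks old CD1 mice by the sample labels, whereas the published methods give a somewhat younger age and the strain name ICR. No gene was altered. All females had received 5 IU PMSG 46 h before collection, and all oocytes were held in meiotic arrest with 100 µM IBMX, released into medium without it for 180 min and exposed to 0.1 mg/ml cycloheximide for 10 min, so every sample shares these treatments. The 200 post-NEBD oocytes of each sample, collected after nuclear envelope breakdown, were lysed and separated on a sucrose gradient, and its 10 fractions were pooled into non-polysomal (NP) RNA, which holds free mRNA and mRNA on monosomes, and polysomal (P) RNA. There are 3 AF NP and 3 AF P libraries, and oocytes of young females were not analysed here, so no value below is a comparison of ages. The libraries are pools of oocytes, and no source used here says whether pools shared females, so p-values measure the spread between these samples. The SE, interval and p-value of limma also draw on the spread of other genes at a like level.

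Mos is a germ-cell protein kinase that is translated from stored mRNA when meiosis resumes. It phosphorylates the MAPK kinase MEK1, encoded by *Map2k1*, which phosphorylates MAP kinases such as ERK1, encoded by *Mapk3*. The pathway acts on spindle assembly in meiosis and on the arrest at metaphase II, an activity historically named cytostatic factor, and the F-box protein Emi2, encoded by *Fbxo43*, holds that arrest by inhibiting the anaphase-promoting complex. Translation of *Mos* in maturing oocytes is known to go with elongation of its poly(A) tail in the cytoplasm, which involves the cytoplasmic polyadenylation element, the binding protein Cpeb1, and the poly(A) hexamer.

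The ends of the annotated transcripts are given first, because these elements act from the last bases of the 3′ UTR. *Mos* (ENSMUSG00000078365.5) lies on chromosome 4 from 3870657 to 3872105 of GRCm38, on the minus strand, and is a single exon of 1449 bases with a coding length of 1029 bases and a 3′ UTR of 126 bases. *Map2k1* (ENSMUSG00000004936.8) lies on chromosome 9 from 64185770 to 64253631, minus strand, with 11 exons and a 3′ UTR of 915 bases in its transcript. *Mapk3* (ENSMUSG00000063065.13) lies on chromosome 7 from 126759601 to 126765819, plus strand, with 9 exons and a 3′ UTR of 612 bases. *Fbxo43* (ENSMUSG00000048230.6) lies on chromosome 15 from 36150060 to 36164884, minus strand, with 5 exons and a 3′ UTR of 1584 bases. For each gene the longest protein-coding transcript with a complete 3′ end was used, and other annotated ends were not searched. Its last 100 bases were searched on the sense strand for the polyadenylation element letters TTTTAT and TTTTAAT and for the hexamers AATAAA and ATTAAA. None of the 4 windows held either element, whose letters stand in 17.8% of 19718 windows of the same kind. *Mos* held 1 copy of AATAAA, 16 bases from the end of the transcript. *Map2k1* held 2 copies, 37 and 15 bases from the end, and AATAAA stands in 64.7% of all windows. *Fbxo43* held 2 copies of ATTAAA, 33 and 20 bases from the end, a hexamer found in 20.46% of all windows. *Mapk3* held neither hexamer, and 78.6% of all windows held at least 1. A match is a description of letters and not of a site in use, and no match speaks only of these letters in this window. The sites nearest the 3′ end are shown in 30 bases of 3′ UTR each, from GENCODE M21 transcripts on GRCm38 with the hexamer in capitals, at chr4:3870661-3870690, chr9:64185773-64185802 and chr15:36150068-36150097, all on the minus strand.
Mos: atatttttaggaAATAAAgttaccacgaac
Map2k1: ctatcaagttaaAATAAAagggacaagaga
Fbxo43: ttaaaactaataATTAAAtttaaaatttac

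Sequencing depth, inferred from the smallest increments in which low FPKM values occur, ranged from 1237799 to 18096676 reads in AF NP and from 163822 to 1549317 in AF P, with the lowest in AF P replicate 1. Summed FPKM over all listed genes was 597277 to 633211 in NP and 246215 to 393926 in P, and over the 10578 genes tested the log2 ratio of P to NP had a median of -1.03, so the ratios of the 4 mRNAs are also given relative to that median. Of 10 oocyte markers 9 were above 1 FPKM in every library. Of 10 granulosa and cumulus markers 6 (*Amh*, *Foxl2*, *Fshr*, *Inhba*, *Hsd17b1* and *Gja1*) were listed at 0 in all libraries. The others, *Inha*, *Cyp19a1*, *Kitl* and *Nr5a2*, were above 0 in at least 1 library, and none was above 1 FPKM in every library. The sum of the list ranged from 11.2 to 131 FPKM in NP and from 1.18 to 16.5 in P, so the pools were not free of these mRNAs. The 4 blood markers in the table were at 0 throughout. *Actb*, the control mRNA of the study, was lower in P in 3 of 3 pairs of libraries with the same replicate number, as were 38.6% of all genes, with a log2 ratio of -1.09 ± 0.83 (SE, n = 3 and 3) and an adjusted p of 0.496 (limma, Benjamini-Hochberg).

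*Mos*, the kinase at the head of the cascade, was among the most abundant mRNAs of both fractions. Its FPKM was 888, 1006 and 1072 in AF NP replicates 1, 2 and 3, and 1036, 461 and 1231 in AF P replicates 1, 2 and 3. The P values of replicates 1 and 3 lay inside or above the NP range and that of replicate 2 lay below it, so the fractions overlapped. The mean was 988 ± 93.3 FPKM in NP and 910 ± 400 in P (SD, n = 3 each), a coefficient of variation of 9.44% in NP and 44.0% in P. By rank from the top, it stood at places 86, 73 and 74 in NP and at 33, 44 and 36 in P, with between 0.450% and 0.767% of the genes listed above 0 in a library standing higher. Those P values rest on 246, 763 and 2764 recovered reads, against 1592, 26376 and 18838 in NP. The log2 ratio of P over NP, on the log2(FPKM + 1) scale, was -0.23 ± 0.54 (SE), with a 95% interval from -1.35 to 0.88 and an adjusted p of 0.836 (limma). The exact two-sided permutation p was 0.9, where the smallest that 3 libraries against 3 allow is 0.1. The ratio was 0.80 above the median of all genes on the log2 scale, at percentile 74.7 of the genes tested. Without AF P replicate 2 the log2 ratio was 0.20, and it was between 0.66 and 0.77 when libraries were rescaled to each other. In pools of oocytes, fewer oocytes that hold an mRNA and less of it in each oocyte cannot be told apart.

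**Figure D1:**
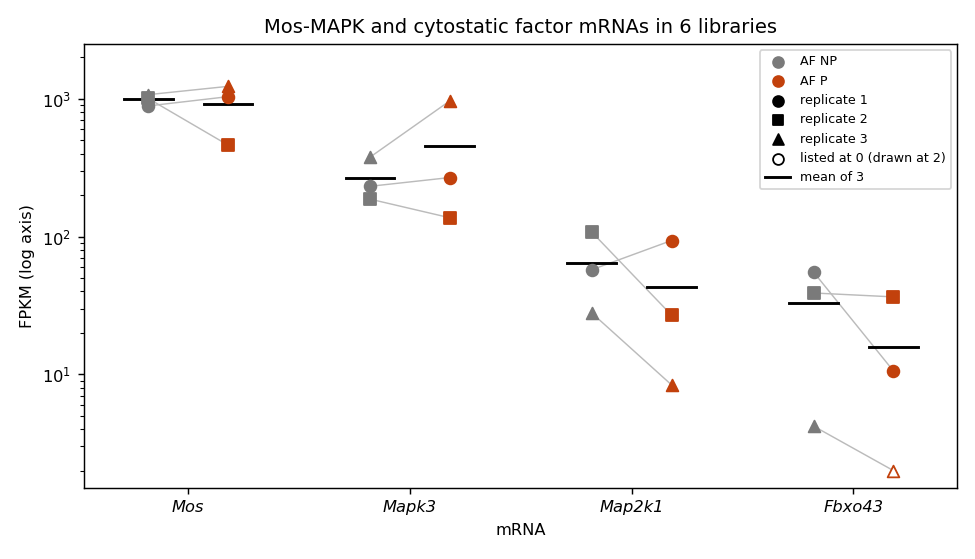
FPKM of each mRNA (log axis) in the 3 AF NP libraries (grey) and the 3 AF P libraries (orange), with libraries of the same replicate number joined and a black line at the mean of 3. The NP values of *Mos* lie between 888 and 1072 FPKM, and the spread is wider for *Map2k1* and *Fbxo43*, whose AF P replicate 3 is listed at 0 and drawn at 2.

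*Map2k1*, which encodes the MAPK kinase MEK1, varied more between NP libraries than *Mos* and *Mapk3*, with a coefficient of variation of 62.8%. Its FPKM was 57.4, 107.8 and 27.9 in AF NP replicates 1 to 3 and 93.6, 26.9 and 8.37 in AF P replicates 1 to 3. Replicate 3 held the lowest value of either fraction, and the highest P value lay within the NP range. The means were 64.4 ± 40.4 FPKM in NP and 42.9 ± 44.8 in P (SD, n = 3 each), and the P values rest on 52, 104 and 44 recovered reads. The log2 ratio was -0.96 ± 1.03 (SE), with a 95% interval from -3.09 to 1.16, an adjusted p of 0.608 (limma) and an exact permutation p of 0.4. That is 0.07 above the median of all genes, at percentile 52.7. The FPKM ratio of P over NP within a replicate number was 1.63 in replicate 1, 0.249 in replicate 2 and 0.30 in replicate 3. The table divides *Map2k1* by the 3391 bases of all its annotated exons, merged over transcripts, 1.39 times the 2436 bases of its coding transcript. *Uchl4*, a gene on the opposite strand inside *Map2k1*, shares no exonic base with it and was at most at 1.39 FPKM.

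*Mapk3*, which encodes the MAP kinase ERK1, had the highest log2 ratio of P over NP among the 4, a rank that rests on replicate 3. Its FPKM was 231.6, 187 and 376.6 in AF NP replicates 1 to 3 and 268.1, 136.9 and 965.9 in AF P replicates 1 to 3. The value of AF P replicate 3 stood far above the other P values, and the P value of replicate 2 was the lowest of all 6. The means were 265 ± 99.1 FPKM in NP and 457 ± 446 in P (SD, n = 3 each). The log2 ratio was 0.37 ± 0.74 (SE), with a 95% interval from -1.15 to 1.90, an adjusted p of 0.806 (limma) and an exact permutation p of 0.8. It stood 1.4 above the median of all genes, at percentile 87.2, and P was higher in 2 of 3 pairs. Without AF P replicate 3 it was -0.40, below those of *Map2k1* (-0.15) and *Fbxo43* (-0.12) without that library, and it was between 1.30 and 1.38 when libraries were rescaled to each other. Its place from the top was 502, 674 and 321 in NP and 199, 278 and 54 in P, so *Mapk3* stood nearer the top in P in each replicate number, in libraries where fewer genes were above 0 (6247 to 9557 in P and 9992 to 13514 in NP).

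*Fbxo43*, which encodes the inhibitor Emi2, was the lowest of the 4 in 5 of 6 libraries. Its FPKM was 55.3, 38.9 and 4.21 in AF NP replicates 1 to 3 and 10.6, 36.5 and 0 in AF P replicates 1 to 3. P was lower than NP in 3 of 3 pairs, as for 38.6% of all genes tested, but the P value of replicate 2 lay within the NP range. The value of 10.6 FPKM rests on 7 recovered reads, and for the library listed at 0 a count of 3 reads would be 0.480 FPKM. The NP values rest on 276, 2843 and 206 reads. The means were 32.8 ± 26.1 FPKM in NP and 15.7 ± 18.8 in P (SD, n = 3 each). The log2 ratio was -1.58 ± 1.35 (SE), with a 95% interval from -4.38 to 1.21, an adjusted p of 0.526 (limma) and an exact permutation p of 0.5. It was 0.55 below the median of all genes (-0.55), at percentile 31.3. Without AF P replicate 3 the log2 ratio was -0.12, and it was between -0.86 and -0.65 when libraries were rescaled to each other. *Fbxo5*, which encodes the related inhibitor Emi1, was lower than *Fbxo43* in 4 of 6 libraries. It had 16.5, 12.5 and 26.3 FPKM in NP, against 3.05, 1.75 and 15.1 in P, and exceeded *Fbxo43* in replicate 3 of both fractions.

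None of the 4 mRNAs passed the adjusted p of 0.1, beside 1.82% of all genes tested, of which 1.8% were lower and 0.0189% higher in P. P and NP values of all 4 overlapped, while 23.2% of the genes tested were lower in P without overlap and 0.633% higher. None of the 4 was higher in P in 3 of 3 pairs, beside 2.09% of all genes. The 95% intervals of all 4 log2 ratios span 0, the narrowest being that of *Mos*, so these libraries exclude neither a ratio of 0 nor the other ratios inside the intervals. With the replicate number as a block the adjusted p was 0.818 for *Mos*, 0.558 for *Map2k1*, 0.766 for *Mapk3* and 0.406 for *Fbxo43* (limma).

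**Figure D2:**
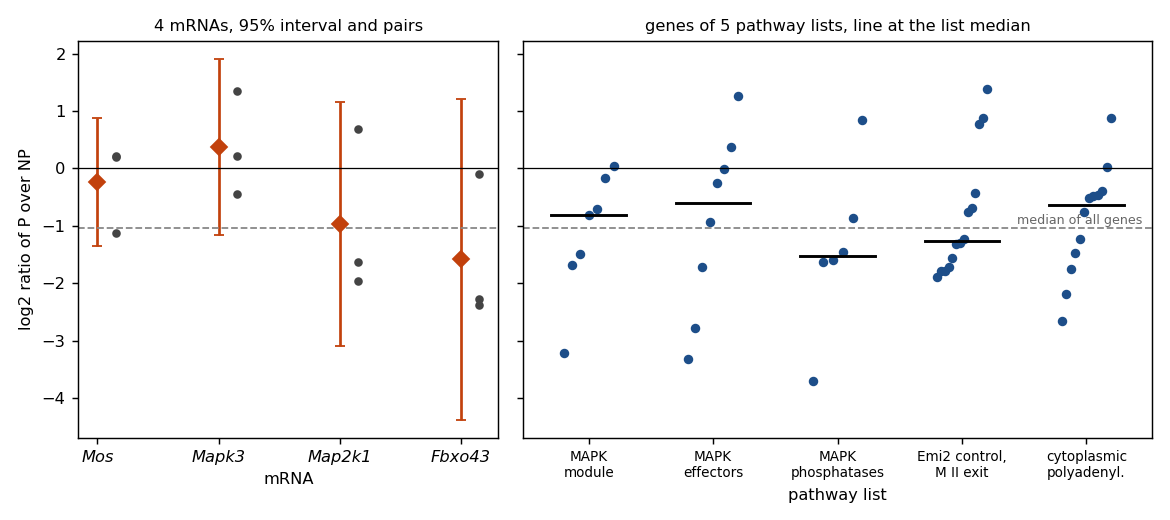
The log2 ratio of P over NP on the log2(FPKM + 1) scale, with the dashed line at the median of all genes tested, -1.03. Left, the estimate of each mRNA with its 95% interval (limma) and, as small points, the difference within each replicate number, in which all 4 intervals span 0; right, every tested gene of 5 pathway lists with a line at the list median, which runs from -1.53 for the phosphatases to -0.60 for the effectors.

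Differences between the mRNAs within a library do not depend on how that library was scaled, apart from the added 1 FPKM. The order *Mos*, *Mapk3*, *Map2k1*, *Fbxo43* from high to low held in 5 of 6 libraries. In AF P replicate 2 *Fbxo43* stood above *Map2k1*, with a *Map2k1* to *Fbxo43* ratio of 0.737. Divided by the length of the single transcript in place of all exons, that ratio was 1.03 and the order held in 6 of 6 libraries. The *Mos* to *Mapk3* ratio was 3.83, 5.38 and 2.85 in NP and 3.87, 3.37 and 1.27 in P. Neighbours in the order were not far apart in every library: *Mos* and *Mapk3* nearly met in AF P replicate 3, at 1.06 per transcript length, and *Map2k1* and *Fbxo43* in AF NP replicate 1, at 1.04 as deposited. *Mos* exceeded *Map2k1* by 9.33 to 147 times, and *Fbxo43* by 12.6 to 255 times in the 5 libraries where the latter was above 0.

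Whether one mRNA shifted between P and NP differently from another was tested for the 6 pairs of mRNAs. The log2 difference of *Mos* minus *Mapk3* was 1.95 ± 0.46 in NP and 1.35 ± 0.87 in P (SD, n = 3 each), a change of -0.61 with an exact permutation p of 0.5, and without AF P replicate 3 it was -0.11. The change was largest for *Mapk3* minus *Fbxo43*, with a log2 difference of 3.49 ± 2.33 in NP and 5.44 ± 4.09 in P, a change of 1.96 with an exact permutation p of 0.7. *Map2k1* minus *Mapk3* changed by -1.34 with an exact permutation p of 0.6. The exact permutation p of the other 3 pairs was 0.6 or 0.7, and all 6 were 0.7 after Benjamini-Hochberg adjustment. The values of AF P replicate 3 weighed on this: without it, the change for *Mapk3* and *Fbxo43* was -0.28 and that for *Map2k1* and *Mapk3* 0.26.

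Related genes of the cascade were compared within libraries as levels per exon length. *Map2k1* exceeded *Map2k2*, which encodes MEK2, in 6 of 6, by 3.35, 7.76 and 2.46 times in NP. In P *Map2k2* was at 0, 2.12 and 0.347 FPKM, and no ratio is given over values this low. *Araf* and *Braf*, which encode MAPK kinase kinases of somatic cells, were at most at 7.53 and 3.79 FPKM. These ratios are descriptions of mRNA levels and were not tested.

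**Figure D3:**
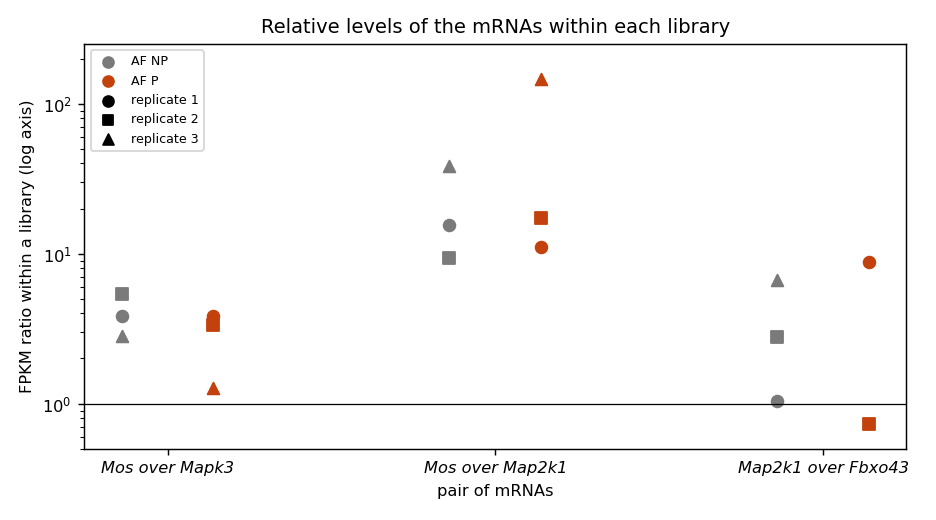
FPKM ratio of 2 mRNAs within each library (log axis) for *Mos* over *Mapk3*, *Mos* over *Map2k1* and *Map2k1* over *Fbxo43*, with AF NP in grey, AF P in orange and a line at 1. *Mos* lies above *Mapk3* and *Map2k1* in every library, nearest to *Mapk3* in AF P replicate 3 at 1.27, while *Map2k1* over *Fbxo43* falls to 0.737 in AF P replicate 2 and has no point in AF P replicate 3, where *Fbxo43* is listed at 0.

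Other genes of the pathway were taken from 5 lists with 54 genes in all, of which 47 were tested. None passed the adjusted p of 0.1 in either direction, beside 1.82% of all genes tested. At an unadjusted p under 0.05, 6 of 47 (12.8%) and 1669 of all 10578 genes (15.8%) stood (limma). The ratio was below 0 for 38 of 47 (80.9%), and for 80.1% of all genes, and the median was -0.93, against -1.03 over all genes. Without overlap, 8 of 47 (17.0%) were lower in P, beside 23.2% of all genes, and none was higher, beside 0.633%. With the replicate number as a block, 4 of 47 (8.51%) were called lower in P, beside 6.27% of all genes tested called lower and 6.31% called in either direction.

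The MAPK module list holds the other kinases and scaffolds of the cascade, with 7 of 7 genes tested, 0 called and a median log2 ratio of -0.81. *Ksr1*, which encodes a scaffold that holds MEK and ERK together, had 24.4, 9.86 and 16.8 FPKM in NP, against 12.9, 20.8 and 10.6 in P, with overlapping fractions, a log2 ratio of -0.16 ± 1.07 (SE) and an adjusted p of 0.947 (limma). *Map2k2* had 17.1, 13.9 and 11.3 FPKM in NP, against 0, 2.12 and 0.347 in P, with every P value below every NP value and an adjusted p of 0.202 (limma).

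The effector list covers kinases downstream of ERK and proteins that bind it, with 8 of 8 tested, 0 called and a median of -0.60. *Mknk1*, which encodes a kinase of the cap-binding factor eIF4E, had 157, 126 and 85.8 FPKM in NP, against 8.14, 18.7 and 29.1 in P. Its P values all lay below its NP values, and its log2 ratio was -2.78 ± 0.93 (SE) with an adjusted p of 0.162, and 0.0979 with the replicate block (limma). *Mknk2*, which encodes the related kinase, had 2.90, 12.1 and 7.75 FPKM in NP, against 5.97, 11.4 and 71.0 in P, with overlapping fractions, a log2 ratio of 1.27 ± 1.21 (SE) and an adjusted p of 0.570 (limma). *Cdk2ap2* had 52.3, 62.0 and 129 FPKM in NP, against 101, 17.1 and 33.1 in P, with a log2 ratio of -0.93 and overlapping fractions. The mRNA of RSK1, *Rps6ka1*, the best known ERK-activated kinase of the list, had 21.1, 115 and 32.1 FPKM in NP, against 8.60, 11.3 and 18.8 in P. The other RSK mRNAs, *Rps6ka2*, *Rps6ka3* and *Rps6ka6*, stayed at or under 3.47 FPKM in every library. *Mapk1ip1* had 85.4, 96.2 and 79.1 FPKM in NP, against 0, 39.1 and 16.1 in P, with an adjusted p of 0.188, and 0.0825 with the block (limma).

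The phosphatase list holds dual-specificity phosphatases, which remove the activating phosphates of MAP kinases. Of its 10 genes 6 were tested, 0 were called and the median was -1.53. *Dusp10*, whose protein acts mainly on the stress-activated kinases p38 and JNK, had 75.2, 95.7 and 870 FPKM in NP, against 4.01, 13.2 and 39.0 in P. All 3 P values lay below the NP values, and the NP value of replicate 3 stood far above the other NP values. Its log2 ratio of -3.71 ± 1.06 (SE) was the lowest of the 47 genes, with an adjusted p of 0.106, and 0.0259 with the block (limma). Without AF NP replicate 3 its ratio was -2.60. *Dusp7*, which encodes an ERK phosphatase, had 122, 304 and 158 FPKM in NP, against 16.4, 80.7 and 205 in P, a log2 ratio of -1.45 ± 0.90 (SE) with an adjusted p of 0.422 (limma). Without AF P replicate 1 its ratio was -0.48, and without AF P replicate 3 it was -2.27. *Dusp6*, another ERK phosphatase, had 0.313 FPKM in AF P replicate 2 and was at 0 in the other 5 libraries.

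The list on Emi2 control and exit from metaphase II had 14 of 15 genes tested, 0 called and a median of -1.26. *Plk1*, a kinase that marks Emi2 for destruction, was more abundant than *Fbxo43* in every library, with 682, 756 and 2085 FPKM in NP against 266, 225 and 436 in P. Its P values all lay below its NP values, with a log2 ratio of -1.78 ± 0.61 (SE) and an adjusted p of 0.166, and 0.0905 with the block (limma). *Camk2g*, the calcium-activated kinase that starts Emi2 destruction at fertilisation, had 235, 278 and 95.5 FPKM in NP, against 107, 161 and 6.10 in P, a log2 ratio of -1.89 ± 1.01 (SE) with an adjusted p of 0.359 (limma). Without AF P replicate 3 its ratio was -0.48. *Cdc20*, the activator of the complex that Emi2 inhibits, kept to 34.2, 36.0 and 34.8 FPKM in NP and was at 39.2, 15.5 and 28.0 in P.

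The list on cytoplasmic polyadenylation had 12 of 14 genes tested, 0 called and a median of -0.64. *Cpeb1*, whose protein binds the polyadenylation element, had 73.8, 220 and 398 FPKM in NP, against 122, 107 and 189 in P, with a log2 ratio of -0.46 ± 0.78 (SE) and an adjusted p of 0.769 (limma). *Cpsf4*, a subunit of the factor that binds the hexamer, had 260, 209 and 37.0 FPKM in NP, against 109, 49.7 and 28.3 in P, with a log2 ratio of -1.23 ± 0.92 (SE) and an adjusted p of 0.490 (limma). *Dazl*, an oocyte RNA-binding protein of translation control, had 106, 220 and 161 FPKM in NP, against 16.6, 76.2 and 72.8 in P, without overlap. The cytoplasmic poly(A) polymerase gene *Tent2*, listed under its older symbol *Papd4*, was at most at 4.87 FPKM.

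Across libraries, the 4 mRNAs did not share one pattern. In both fractions replicate 3 held the lowest *Map2k1* and *Fbxo43* and the highest *Mapk3*. As a measure of likeness, the mean over the 6 libraries was taken from each log2(FPKM + 1) profile and the root mean square difference between profiles was computed. Among the 4, *Mos* and *Mapk3* were closest, at 0.64, and *Mapk3* and *Fbxo43* farthest, at 2.89 (log2). Of 10577 other genes, those nearest to *Mos* were *Rap1b* at 0.16, *Rab35* at 0.19 and *Degs1* at 0.22. *Rab35*, for example, had 214, 162 and 190 FPKM in NP, against 196, 85.4 and 208 in P, low in AF P replicate 2 as *Mos* was. Nearest to *Map2k1* were *Alyref*, *Vdac3-ps1* and *Dpysl3*, at 0.15 to 0.26. Nearest to *Fbxo43* were *Gprc5c*, *Ccna2* and *Deptor*, at 0.23 to 0.38, and *Ccna2*, the cyclin A2 mRNA, had 53.6, 43.5 and 3.95 FPKM in NP, against 5.22, 37.7 and 0 in P. Nearest to *Mapk3* were *Rps15a-ps1*, *Med28* and *Gm10800*, at 0.30 to 0.35, and of these only *Med28* was above 0 in all 6 libraries.

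The position of each ratio relative to the median of all genes was followed over the 16 other settings. *Mapk3* stood above the median in 16 of 16, by 0.37 to 2.20 on the log2 scale, and *Mos* in 15 of 16. *Map2k1* stood above it in 12 of 16 and *Fbxo43* in 2 of 16. No trend, the replicate block and the threshold of 0.05 leave both the ratio and the median as reported, so they add nothing to these counts. With no filter on low values the median was 0. All settings share the same 6 libraries, so the counts describe the processing and are not a test, and none of the 4 mRNAs passed the adjusted p of 0.1 in any of the 16.

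**Figure D4:**
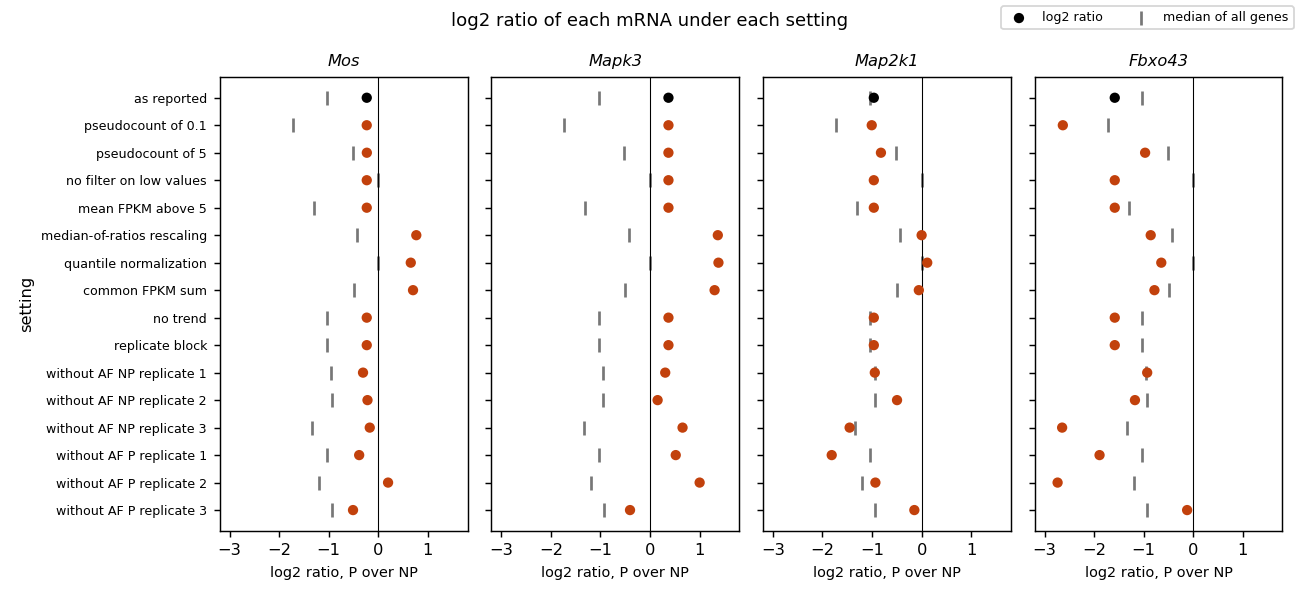
The log2 ratio of P over NP (horizontal) of each mRNA as reported (black) and under each other setting (orange), with a grey tick at the median of all genes under that setting; the threshold of 0.05, which leaves the ratios as they are, is not drawn. *Mapk3* lies right of the median under every setting and falls below 0 without AF P replicate 3, at -0.40, while *Fbxo43* lies left of 0 throughout.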

How the data were processed

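FPKM per gene were deposited by the authors, who computed them in Seqmonk after adapter trimming (Trim Galore 0.4.1) and alignment to GRCm38 (HISAT2 2.0.5). RNA had been depleted of rRNA and amplified as a whole transcriptome, so reads are not independent molecules and read limits cover counting error only. For the gene annotation, strandedness and filtering of reads, no setting is given in the sources used here. The deposited means of each fraction were not used. Of 25965 rows, 66 repeated a symbol and the row with the highest mean was kept. Exon lengths were those of GENCODE M21. Depth was the step that made the most low values whole: 84.0% to 89.5% per library, within 0.02 reads. Exon reads summed to 1.10 to 2.24 times that depth, so the unit of 1 step is uncertain. *Mapk3* came out whole only at 2163 bases, not at the 2257 of the annotation, a length found from its own values.

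Limma 3.58.1 (R 4.3.3) was fitted to log2(FPKM + 1) of P against NP, letting the spread depend on the level, for genes with a mean above 1 FPKM in either fraction. Each SE, interval and p-value of limma combines the gene's own spread with that of other genes, which entered with 18.4 degrees of freedom. Without the trend the SE of *Mos* was 0.89, against 0.54 as reported. Tests were two-sided, with Benjamini-Hochberg adjustment over all genes tested and a threshold of 0.1. The added 1 understates the ratio of low genes. Scripts were tested on simulated data. Recovery of every changed gene was required only at a noise below that of these data, where the median residual SD was 1.22 (log2). That check is therefore no measure of what the test can find here. NP and P were pooled from one gradient per sample, so equal replicate numbers may pair them, though no source used here says so. Deviations correlated across genes at 0.063, 0.099 and 0.116 for equal numbers, and at -0.089 to 0.021 otherwise, so the block is an alternative. The genes named are the 4, *Actb*, in each pathway list those called and the 2 with the highest mean FPKM, other list genes where a statement needs them (2 genes that the rule picks are not reported here), and the 3 genes nearest in profile to each. The members and lists were chosen with earlier results of these data known. A planned search of protein motifs was not made, since no protein table was used here. Plots were made in Python 3.11.15 with matplotlib 3.10.9.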

Additional observations from a re-analysis of the deposited data

How the results depend on the processing

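Of the 64 log2 ratios of the 4 mRNAs under other settings, 7 reversed. The other filters, no trend, the replicate block and the threshold of 0.05 leave a ratio as it is by construction, so a kept direction there says nothing of stability. Under median-of-ratios rescaling, quantile normalization and a common FPKM sum, in that order, *Mos* was at 0.77, 0.66 and 0.70, *Mapk3* at 1.37, 1.38 and 1.30 and *Cpeb1* at 0.53, 0.61 and 0.47; under the first 2, *Map2k1* was at 0.00026 and 0.11 and *Cdk2ap2* at 0.043 and 0.069. These rescalings moved the median of all genes to -0.43, 0.0027 and -0.50. They moved the list medians to 0.17, 0.28 and 0.11 for the MAPK module, 0.17, 0.44 and 0.070 for the effectors, -0.70, -0.57 and -0.78 for the phosphatases, and -0.44, 0.014 and -0.53 for Emi2 control; that of cytoplasmic polyadenylation was -0.052 and 0.31 under the first 2 and -1.19 with a pseudocount of 0.1, and that of the effectors -1.72 with a mean FPKM above 5. Mean FPKM of *Mos* in NP was 718 under median-of-ratios rescaling and 758 with a common sum, and in P it was 1278 and 1260. In the same order, *Map2k1* was at 39.5 and 48.8 in NP and at 50.2 and 63.5 in P. *Mapk3* was at 208 and 205 in NP and at 707 and 595 in P, and *Fbxo43* at 18.4 and 24.9 in NP and at 20.2 and 28.1 in P. The means of *Mos*, *Map2k1* and *Fbxo43*, higher in NP as deposited, were thus higher in P. *Dusp10* was between -2.82 and -2.69 under the 3 rescalings, with an adjusted p of 0.621 to 0.652 (limma). *Mknk1* was between -1.87 and -1.80, *Plk1* between -0.85 and -0.76 and *Camk2g* between -0.97 and -0.65 under them. *Dusp7* was between -0.53 and -0.46, *Cpsf4* between -0.30 and -0.24 and *Actb* between -0.17 and -0.10. With a pseudocount of 0.1 and of 5, *Fbxo43*, which has a library at 0, was at -2.63 and -0.97, and the change between fractions at 3.01 and 1.34 for *Mapk3* and *Fbxo43*, at 2.40 and 0.74 for *Mos* and *Fbxo43* and at 1.63 and 0.15 for *Map2k1* and *Fbxo43*. The cause was not tested.

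The count of genes past the threshold was 192, of which 190 were lower and 2 higher in P. It was 69 (67 lower) with a pseudocount of 0.1, 1 (0 higher, 1 lower) with no filter on low values, where 1774 stood at an unadjusted p under 0.05 (limma), 3 (1 lower), 4 (2 lower) and 6 (4 lower) under the 3 rescalings, 15 (0 higher, 15 lower) without the trend, 65 (63 lower) at a threshold of 0.05, and 668 (5 higher, 663 lower) with the replicate block. The block changed the calls of *Dusp10*, *Mknk1*, *Plk1* and *Mapk1ip1* and of no other gene of the lists. *Dusp10* and *Mknk1* were also called without AF P replicate 3, with adjusted p of 0.0312 and 0.0737 (limma).

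With each library left out in turn, the count ran from 1 (without AF NP replicate 3) to 331 (without AF P replicate 3), with 0 to 4 higher and 1 to 328 lower. It was 4 without AF NP replicate 1 and 12 without AF NP replicate 2. Ratios ran from -0.51 to 0.20 for *Mos*, -1.81 to -0.15 for *Map2k1*, -0.40 to 1.0 for *Mapk3*, -2.74 to -0.12 for *Fbxo43*, -1.12 to 0.084 for *Cpeb1*, -4.46 to -2.60 for *Dusp10*, -1.61 to -0.36 for *Cdk2ap2*, -2.10 to -0.71 for *Cpsf4*, -2.74 to -0.48 for *Camk2g* and -2.27 to -0.48 for *Dusp7*. List medians ran from -1.26 to -0.57 (module), -1.49 to -0.54 (effectors), -1.99 to -0.89 (phosphatases), -1.45 to -0.64 (Emi2 control) and -1.53 to -0.45 (cytoplasmic polyadenylation). The change between fractions ran from -0.36 to 1.43 for *Mos* and *Map2k1*, -0.91 to -0.11 for *Mos* and *Mapk3*, -0.39 to 2.93 for *Mos* and *Fbxo43*, -2.33 to 0.26 for *Map2k1* and *Mapk3*, -0.023 to 1.81 for *Map2k1* and *Fbxo43*, and -0.28 to 3.74 for *Mapk3* and *Fbxo43*. The *Fbxo43* value of AF P replicate 1 rests on 7 recovered reads.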
